A study of Mus musculus with 6 samples.

Results

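Pax6, Emx1, Emx2, Lhx2, Otx1, Otx2 and Six3 are homeobox transcription factor genes that pattern the early forebrain. These 7 genes, of 21887 protein-coding genes on the autosomes and sex chromosomes, were taken by name, and every H3K4me3 and H3K27me3 peak over the gene span and 20 kb either side was read from 4 peak lists. The cells were neural stem and progenitor cells taken from mouse forebrain at E13.5 and expanded in culture with epidermal and fibroblast growth factor. They received either water or 10 mM crotonate for 24 h. Crotonate is a short-chain fatty acid salt that raises crotonyl-CoA, the substrate for lysine crotonylation of histones. Marks were mapped by CUT&Tag, in which an antibody tethers a transposase that cuts and tags nearby DNA. Each mark and treatment had 1 library, and the labels do not say how many cultures or embryos each came from, so values are given as a description with no test and no replicate error. The labels name neither strain, sex nor a genetic change. The 2 IgG samples were not analysed here.

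H3K4me3 is laid down by the Set1 and MLL complexes around active and poised promoters, and unusually wide H3K4me3 domains are known from genes that set cell identity. H3K27me3 is laid down by Polycomb repressive complex 2 and covers developmental regulators that are silent in a given lineage. Regions carrying both are called bivalent, and in bulk material such overlap and a mixture of cells or alleles with 1 mark each cannot be told apart. Of the genes here, Pax6 drives neurogenesis in cortical radial glia and eye formation. Emx1, Emx2 and Lhx2 establish dorsal telencephalic identity, with Lhx2 setting cortex apart from hem. Otx1 and Otx2, relatives of fly orthodenticle, specify the anterior neural plate, with later roles of Otx2 in choroid plexus and retina and of Otx1 in deep-layer cortical neurons. Six3 protects the anterior forebrain and eye field from Wnt signalling.

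The lists held 13221 (water) and 16007 (crotonate) H3K4me3 peaks and 7643 and 15879 H3K27me3 peaks. Fragment totals are not given. Every pileup value was a whole multiple of 1 step per list (100% within 0.006), so the number of fragments at each summit could be read off. Estimates from these steps and the lowest local backgrounds put the crotonate libraries at 1.16 (H3K4me3) and 0.810 (H3K27me3) times the water depth and the background used for peak calling at 1.80 times. These estimates assume that the caller scaled each library to its background. Peak length and the number of peaks depend on depth, and the part of depth in the differences below was not tested. The cell label was checked against marker genes over the gene span and 2 kb either side. H3K4me3 lay at 9 of 9 progenitor markers in water, at 0 of 5 microglial and 0 of 5 fibroblast and mural markers, and at 1 of 4 endothelial markers (Kdr). It also lay at 4 of 6 neuronal, 1 of 4 astrocyte and 2 of 5 oligodendrocyte lineage markers.

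The 7 genes fell into 3 states in water. Pax6, Emx2 and Otx1 carried H3K4me3 and no H3K27me3. Lhx2 carried both. Otx2, Emx1 and Six3 lay in long H3K27me3 domains, with a single short H3K4me3 peak at Otx2 and none at Emx1 and Six3. So 5 of 7 windows held H3K4me3 in water, against 65.4% of all protein-coding genes, and 4 of 7 held H3K27me3, against 17.5%. After crotonate all 7 held H3K4me3 and the same 4 held H3K27me3. The marks overlapped by at least 1 bp at Lhx2 and Otx2 in water (2 of 7, against 5.77% of all genes), and at Emx1, Lhx2, Otx2 and Six3 after crotonate (4 of 7, against 10.5%).

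**Figure D1:**
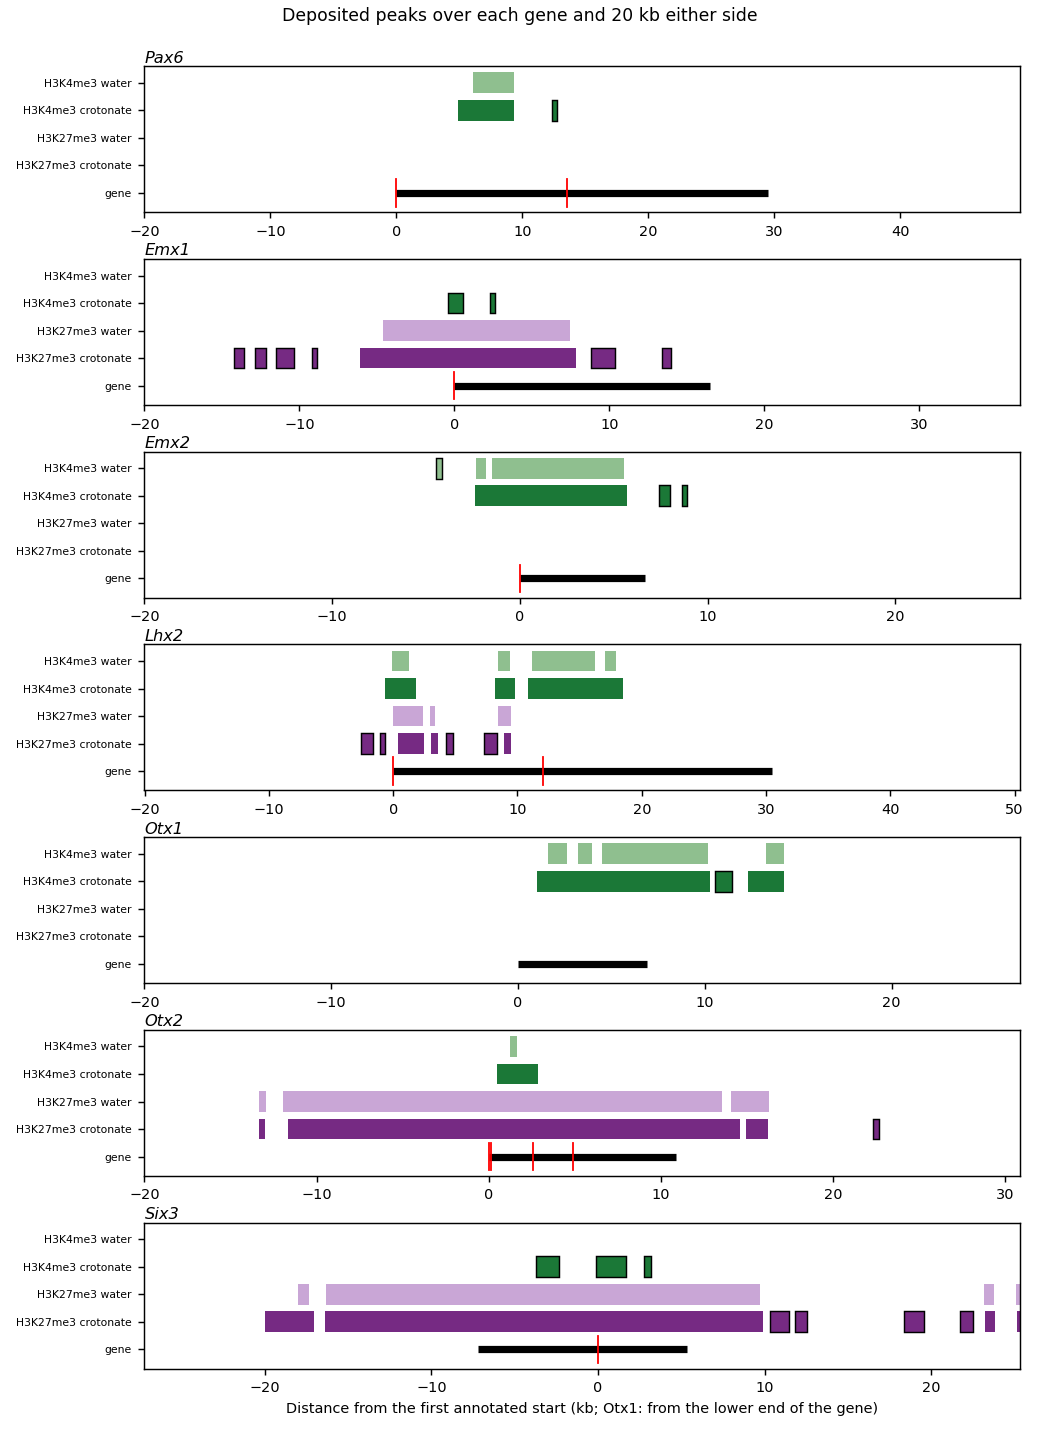
Peaks of the 4 lists over each gene and 20 kb either side, drawn by distance in kb from the first annotated start along the direction of transcription (Otx1 from the lower-coordinate end of the gene). Bars are peaks, black outlines mark peaks found in 1 list of a mark only, the black line is the gene span and red ticks are annotated starts; Pax6, Emx2 and Otx1 show no H3K27me3 bar, and the outlined H3K4me3 bars of Emx1 and Six3 lie over H3K27me3 bars.

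Pax6 spans 105668896 to 105698410 on chromosome 2 (GRCm38), 29.5 kb on the plus strand. Its main H3K4me3 peak lay inside the gene, 6.07 to 9.31 kb downstream of the first annotated start in water (3.24 kb, 193 fragments at the summit) and 4.88 to 9.36 kb downstream after crotonate (4.48 kb, 176 fragments). The summit fell on the same base in both lists, 7594 bp downstream of that start, as did 14.9% of the 12093 H3K4me3 peaks that paired 1 to 1 between the lists. After crotonate the downstream edge differed by 51 bp and the upstream edge by −1186 bp, the minus sign meaning farther upstream, so nearly all of the extra length lay on the side of the first start. The peak was 1.38 times as long after crotonate, against a median of 1.24 over all such pairs. It ranked at percentile 95.2 of the water list by length but only 68.2 by summit height, so it was long rather than tall. A second peak of 376 bp with 15 fragments, fewer than the 16 of the weakest water peak, was found after crotonate only, 12.4 to 12.7 kb downstream and 831 bp short of the second annotated start at 13.6 kb. Its −log10 q (q being the peak caller's adjusted p) was 3.01, where the median of the list was 57.5. Neither annotated start lay in a peak of either mark. H3K27me3 was far away: its nearest peak was at 395 kb in the water list and at 309 kb in the crotonate list. No peak in the window overlapped the neighbours Elp4, an Elongator subunit gene, or the noncoding Pax6os1 and Paupar.

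Emx2 is a 6.67 kb gene on chromosome 19, 59458690 to 59465357. H3K4me3 lay over most of it, covering 82.9% of the span in water and 85.2% after crotonate. Relative to the start, with upstream positions negative, the main peak ran from −1.48 to 5.53 kb in water (7.01 kb, 213 fragments). After crotonate it ran from −2.36 to 5.68 kb (8.05 kb, 220 fragments) and took in a separate water peak of 506 bp. Its summit lay 888 bp into the gene in water and at −210 bp after crotonate. Its length ranked at percentile 99.9 of the water list. A weak upstream peak of 286 bp with 17 fragments was in the water list only, and it was the only peak of either mark at the 7 genes that had no counterpart after crotonate. Peaks of 620 and 293 bp beyond the end of the gene were in the crotonate list only. The upstream peaks also lay over Emx2os, the antisense RNA gene that begins beside Emx2, and the marks do not tell the genes apart. The nearest H3K27me3 peak lay 193 kb from the gene in the water list and 59.3 kb in the crotonate list, the latter 687 bp long with 12 fragments.

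Otx1, 6.89 kb on chromosome 11 from 21994764 to 22001651, showed the same kind of cover. In water 3 H3K4me3 peaks lay over the gene, of 0.993, 0.793 and 5.68 kb with 83, 57 and 215 fragments. After crotonate a single peak of 9.24 kb with 218 fragments took in all of them, from 1.02 to 10.3 kb above the lower-coordinate end of the gene. The covered share of the gene span was 60.9% in water and 85.2% after crotonate. The long peak ranked at percentile 99.6 of its list by length in water, and the summit differed by 58 bp between the lists. In both lists the long peak also lay over the neighbour Gm32517. A further peak inside the neighbour Ehbp1, an endocytic adaptor gene, measured 0.989 kb in water and 1.93 kb after crotonate, and another of 0.880 kb inside Ehbp1 was in the crotonate list only. Of the 7 genes Otx1 lay farthest from H3K27me3, at 2057 kb in the water list and 2046 kb in the crotonate list.

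Lhx2 spans 30.5 kb on chromosome 2, from 38339271 to 38369737, and carried the marks side by side. At its first annotated start H3K4me3 measured 1.40 kb in water and 2.48 kb after crotonate, with 110 and 111 fragments. H3K27me3 overlapping it measured 2.37 kb with 54 fragments in water and 2.04 kb with 30 after crotonate, and its summits lay 1753 and 1784 bp downstream of the start, past the H3K4me3 summits at 338 and 422 bp. That H3K27me3 peak reached the first start in water and began 399 bp downstream of it after crotonate. On the upstream side of that start, H3K27me3 peaks in the crotonate list only lay at −2.61 to −1.65 kb and at −1.03 to −0.623 kb. They had 17 and 15 fragments. A second place of overlap had H3K4me3 summits 8821 and 8921 bp downstream, where H3K4me3 measured 0.979 and 1.57 kb in water and crotonate and H3K27me3 1.03 and 0.578 kb. After crotonate a further H3K27me3 peak of 1.02 kb with 19 fragments, in that list only, overlapped the same H3K4me3 peak by 162 bp. Both marks thus lay on 941 bp of that H3K4me3 peak in water and on 740 bp after crotonate. The longest H3K4me3 peak surrounded the second annotated start, 12027 bp downstream of the first, with 5.12 kb in water and 7.61 kb after crotonate (184 and 179 fragments). The crotonate peak also took in a separate water peak of 880 bp. There was 0 bp of H3K27me3 under this domain in either treatment. This domain and the second place of overlap also lay over the neighbour Gm27197, and the H3K4me3 peak at the first start over Gm46736. The marks do not tell these genes apart. In all, 2254 bp of the window carried both marks in water and 2203 bp after crotonate, while H3K4me3 cover was 8.37 and 11.7 kb and H3K27me3 cover 3.83 and 6.16 kb. The crotonate list alone held 4 of the H3K27me3 peaks, of 0.404 to 1.02 kb with 11 to 19 fragments each, and a small one in both lists measured 432 and 574 bp.

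Emx1, 16.5 kb on chromosome 6 from 85187931 to 85204463, lay under H3K27me3 in both treatments, unlike its relative Emx2. Relative to the start the domain ran from −4.62 to 7.47 kb in water (12.1 kb, 515 fragments) and from −6.10 to 7.83 kb after crotonate (13.9 kb, 247 fragments). On the authors' scaled values the order was the other way, with a pileup of 148 and 157 and a fold enrichment of 33.6 and 52.7. Pileup was scaled per library, so neither the fragments nor the scaled heights of H3K27me3 summits are read as a change here. It ranked at percentile 99.1 of the water list by summit height, and its summits lay 535 and 433 bp downstream of the start. The water list held no H3K4me3 peak nearer than 49.8 kb. After crotonate a peak of 0.992 kb lay across the start, from −404 to 587 bp, with its summit 24 bp past the start, 34 fragments and −log10 q of 8.93. A second one of 320 bp with 20 fragments lay 2.32 kb into the gene. Both lay wholly on H3K27me3, and both were far below 37.7, the median −log10 q among H3K4me3 peaks in water. The domain was also flanked by 6 H3K27me3 peaks in the crotonate list only, of 0.340 to 1.54 kb and 10 to 21 fragments, and with the wider domain the cover in the window was 12.1 kb in water and 18.9 kb after crotonate.

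Six3, 12.6 kb on chromosome 17 from 85613608 to 85626191, was covered by H3K27me3 over 100% of its span in both lists. The domain measured 26.0 kb in water and 26.3 kb after crotonate, with 445 and 242 fragments and a scaled pileup of 128 and 154 at the summit. That summit fell on the same base in both lists, as in 2.36% of the 3987 H3K27me3 pairs, and the edges differed by −91 bp upstream and 172 bp downstream. No H3K4me3 peak lay within 518 kb of the gene in water. After crotonate 3 lay within the domain, of 1.33, 1.80 and 0.446 kb, with 38, 25 and 26 fragments and −log10 q of 4.81, 5.87 and 7.45, all likewise below that median. The longest covered the annotated start, from −93 bp to 1.70 kb, and the first overlapped the noncoding Six3os1 as well. All 3 lay wholly on H3K27me3. Beyond the domain, 4 H3K27me3 peaks of 734 to 1196 bp with 12 to 26 fragments were in the crotonate list only. Of 3 small peaks beside the domain in both lists, the one upstream within Six3os1 measured 636 bp in water and 2924 bp after crotonate, and the downstream ones 604 and 617 bp, and 689 and 630 bp.

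Otx2, 10.9 kb on the minus strand of chromosome 14 from 48656781 to 48667644, was likewise covered by H3K27me3 over 100% of its span in both lists. The domain measured 25.5 kb in water and 26.2 kb after crotonate, with 177 and 110 fragments and a scaled pileup of 50.8 and 69.9. It was the only one of the 3 long domains whose summit moved far, by 7986 bp, from 1468 bp downstream of the first start to −6518 bp, upstream of the gene. An H3K4me3 peak within this domain measured 0.406 kb in water and 2.36 kb after crotonate, 5.81 times as long, with 56 and 50 fragments. The summits lay 1470 and 1512 bp downstream of the first start, with −log10 q of 5.95 and 21.0, also below that median. As signal was scaled per library, these −log10 q values are not read as a change. The water peak touched none of the 4 annotated starts, whereas the longer peak after crotonate took in the third, 2.54 kb downstream of the first. Beside the domain, H3K27me3 peaks measured 2183 and 1274 bp downstream and 411 and 387 bp upstream, and 1 of 366 bp was in the crotonate list only. The long crotonate domain also took in the near end of the 2183 bp water peak, so 2183 and 1274 bp are not a simple pair. Across the Otx2 window H3K27me3 cover was 28.0 and 28.3 kb.

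Covered length per window puts the genes side by side. H3K4me3 cover was longer after crotonate at 5 of the 5 genes that had it in both lists, as at 97.2% of the 14315 genes with the mark in both, so that direction is the background. The ratios ran from 1.15 (Emx2) to 5.81 (Otx2) with a median of 1.43, against 1.32 over all genes. Otx2 alone reached 1.5 times, as did 28.8% of all genes, and Pax6 came just short with 4856 against 3243 bp. Among stronger peaks only, those with −log10 q of 37.7 or more, Lhx2 (1.97) and Otx1 (1.63) passed it instead, and Otx2 had no H3K4me3 peak in either list. On all peaks Lhx2 had 1.39 and Otx1 1.43. The cutoff removed water peaks of both while the crotonate peaks over them stayed. Among these were the Lhx2 peak at the first start (31.6 in water, 53.7 after crotonate) and the Otx1 peaks of 0.993 and 0.793 kb (7.16 and 3.96). The summits of that Lhx2 peak held 110 and 111 fragments, so 1 cutoff of −log10 q is not equally strict for both lists. H3K27me3 cover was longer at 4 of 4 genes, against 88.6% of 3709, with ratios from 1.01 (Otx2) to 1.61 (Lhx2) and a median of 1.40 against 1.46. Emx1 and Lhx2 reached 1.5 times, against 48.0% of all genes. These H3K27me3 ratios rest on weak peaks. With lists of equal length Lhx2 (0.952) and Otx2 (0.935) turned direction and Emx1 came to 1.33, so 0 genes reached 1.5 times and 2 of 4 were longer. Among H3K27me3 peaks with −log10 q of 4.75 (the median in water) or more, Emx1 came to 1.33, Lhx2 to 1.11 and Otx2 to 0.949, and again 0 reached it. Summed over the 7 windows, H3K4me3 covered 28.3 kb in water and 44.8 kb after crotonate, and H3K27me3 71.5 and 87.2 kb.

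**Figure D2:**
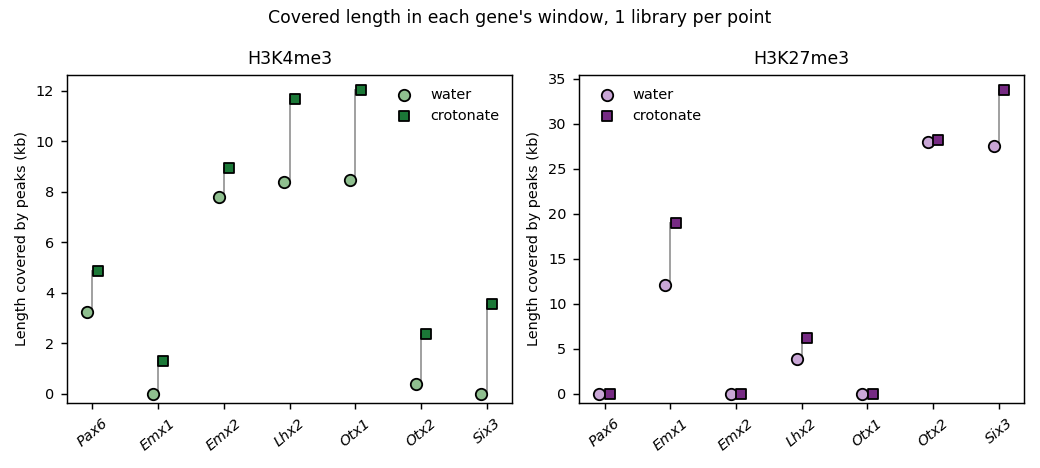
Length in kb covered by H3K4me3 (left) and H3K27me3 (right) peaks in the window of each gene, with water as circles and crotonate as squares, 1 library each. H3K4me3 runs from 0 at Emx1 and Six3 to 8.45 kb at Otx1 in water and from 1312 bp at Emx1 to 12047 bp at Otx1 after crotonate; H3K27me3 is 0 at Pax6, Emx2 and Otx1 in both.

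New peaks, meaning those in the crotonate list that overlapped no water peak of the same mark, were small. At least 1 new H3K4me3 peak lay in the windows of 5 of 7 genes, against 22.7% of all protein-coding genes, and these 9 peaks had a median of 620 bp and 26 fragments. All new H3K4me3 peaks of the list had medians of 469 bp and 25 fragments, and the weakest peak of the water list had 16. Of the 9, the 5 at Emx1 and Six3 lay on H3K27me3. New H3K27me3 peaks lay at 4 of 7 genes, against 19.1%, and only at genes that already had the mark. These 15 peaks had 10 to 26 fragments, and all lay within 7.56 kb of a water H3K27me3 peak, with a median distance of 2.09 kb. The windows of these 4 genes held water H3K27me3, so the window itself limits that distance. No such distance is given for all new H3K27me3 peaks of the list. The weakest H3K27me3 peak of the water list had 14 fragments and that of the crotonate list 8. A lost H3K4me3 peak was found at 1 of 7 genes (0.649% of all) and a lost H3K27me3 peak at 0 of 7 (2.50%). For H3K4me3, 7 of the 13 water peaks joined another under a single crotonate peak, against 7.65% of all water peaks of the mark. They lay under 1 crotonate peak each at Emx2 (2 water peaks), Lhx2 (2) and Otx1 (3). Neighbouring peaks of 1 gene are not separate cases, and the share over all peaks was not matched for nearby peaks. For H3K27me3, 2 of 11 water peaks joined another, both at Otx2, against 36.2%.

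**Figure D3:**
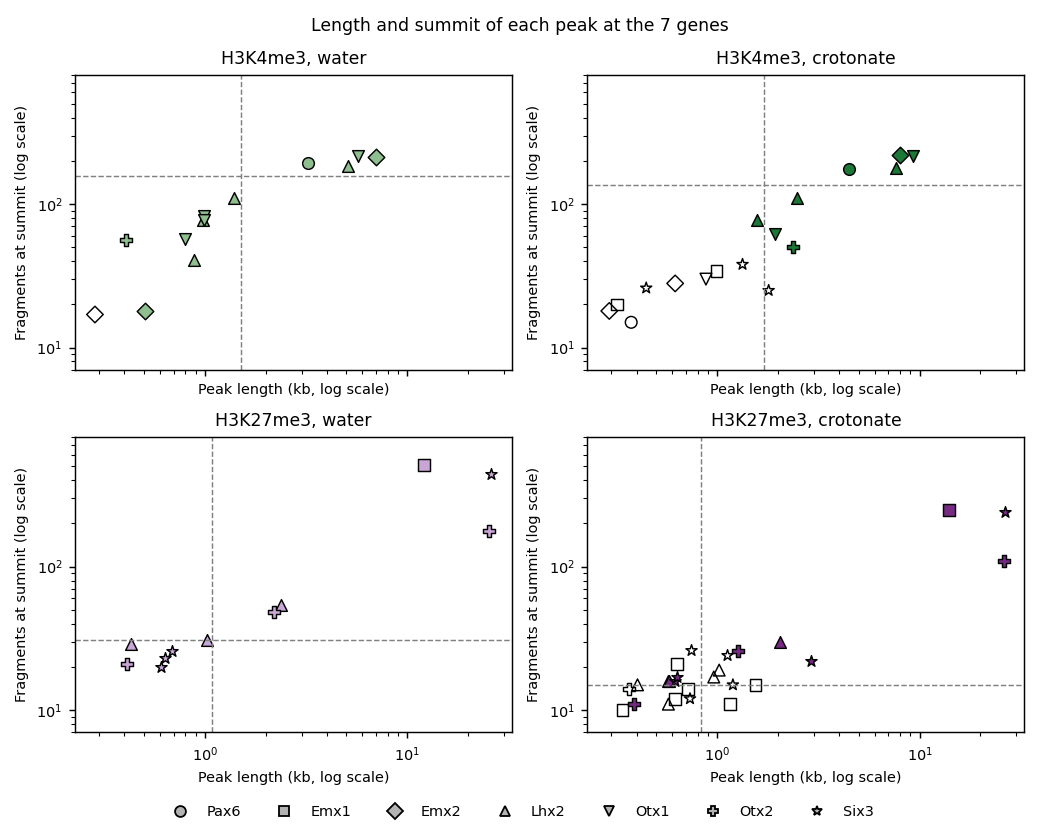
Peak length (kb, log scale) against fragments at the summit (log scale) for every peak at the 7 genes, 1 panel per list and 1 symbol per gene, with dashed lines at the medians of the whole list. Open symbols are peaks found in 1 list of the mark only; they lie between 10 and 38 fragments, while the long peaks of Pax6, Emx2, Lhx2 and Otx1 (H3K4me3) and of Emx1, Otx2 and Six3 (H3K27me3) lie at the upper right.

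Annotated starts from the RefSeq promoter table of GRCm38.p6 were then set against the peaks. The table matched 6 of the 7 genes, with 11 starts, and not Otx1. In water 2 of 6 genes, Emx2 and Lhx2, had a start inside an H3K4me3 peak, against 51.9% of 17492 protein-coding genes. After crotonate 5 of 6 had one, against 56.0%, the additions being Emx1, Otx2 and Six3, and Pax6 was the exception. The starts listed need not be complete: the 1 listed for Six3, at 85620834, lies inside a span that begins at 85613608. At Pax6 the H3K4me3 peaks lay between the 2 listed starts, and an unlisted start there could not be checked. Of genes with no start in H3K4me3 in water, 3 of 4 here and 8.83% of all had one after crotonate. Emx1, Otx2 and Six3 had H3K27me3 at their starts in water, and over all 715 genes in that state the share was 30.5%. At Six3 the peak edge lay at −93 bp, and with the crotonate list shortened to the length of the water list that start was in no H3K4me3 peak, leaving 4 genes. With only H3K4me3 peaks of −log10 q 37.7 or more, none of the 3 additions was left, and Emx2 and Lhx2 were the 2 genes with a start in a peak in both treatments.

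The 250 bases before 5 of these starts are shown because they include each start that came to lie in H3K4me3 after crotonate, 1 start in H3K4me3 in both lists (Emx2) and the first Pax6 start, which lay in no peak. They are written 5′ to 3′ along the gene with every CG dinucleotide in capitals. CG is the site of DNA methylation, and promoters rich in it are known to attract both marks. They lie at chr6:85187681-85187930 on the plus strand (Emx1), chr14:48665110-48665359 on the minus strand (Otx2, the third start), chr17:85620584-85620833 on the plus strand (Six3), chr19:59458440-59458689 on the plus strand (Emx2) and chr2:105668646-105668895 on the plus strand (Pax6), in GRCm38.p6.
Emx1: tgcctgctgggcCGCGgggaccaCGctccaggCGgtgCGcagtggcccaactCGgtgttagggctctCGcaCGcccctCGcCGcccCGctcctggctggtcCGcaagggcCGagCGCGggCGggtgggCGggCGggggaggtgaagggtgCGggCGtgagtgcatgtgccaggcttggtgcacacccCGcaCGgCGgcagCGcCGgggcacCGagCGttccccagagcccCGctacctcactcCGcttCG
Otx2: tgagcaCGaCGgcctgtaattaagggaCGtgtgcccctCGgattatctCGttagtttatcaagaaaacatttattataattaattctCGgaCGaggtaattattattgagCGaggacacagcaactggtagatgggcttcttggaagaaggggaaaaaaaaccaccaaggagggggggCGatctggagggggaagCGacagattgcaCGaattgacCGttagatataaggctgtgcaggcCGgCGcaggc
Six3: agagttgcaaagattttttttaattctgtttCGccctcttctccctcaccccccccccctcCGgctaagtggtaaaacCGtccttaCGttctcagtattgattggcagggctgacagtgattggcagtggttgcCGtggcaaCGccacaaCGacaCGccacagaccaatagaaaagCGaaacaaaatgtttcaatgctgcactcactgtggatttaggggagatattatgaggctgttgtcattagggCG
Emx2: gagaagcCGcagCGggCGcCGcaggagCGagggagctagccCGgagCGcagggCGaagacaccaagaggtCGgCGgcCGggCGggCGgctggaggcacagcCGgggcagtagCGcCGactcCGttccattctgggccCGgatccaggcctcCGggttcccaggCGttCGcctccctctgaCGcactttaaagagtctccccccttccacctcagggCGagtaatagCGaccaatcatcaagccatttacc
Pax6: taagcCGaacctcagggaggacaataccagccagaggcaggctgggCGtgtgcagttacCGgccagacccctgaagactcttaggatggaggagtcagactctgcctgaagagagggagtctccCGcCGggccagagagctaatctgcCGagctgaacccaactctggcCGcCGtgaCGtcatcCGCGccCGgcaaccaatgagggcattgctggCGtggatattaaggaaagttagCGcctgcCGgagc

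The Emx1 sequence held 30 CG, as many as or more than 93.3% of 21263 starts of protein-coding genes, and was 75.6% G and C. Emx2 held 24, and the 2 Lhx2 starts 25 and 24. Pax6 held 15 before each start, Otx2 14 before the third start and 6 to 9 before the others, and Six3 10, the median of all starts. Starts with H3K4me3 alone in water had a median of 18 CG, those with both marks 20, those with H3K27me3 alone 12 and those with neither 3. Among starts with H3K27me3 alone, the 252 that lay in H3K4me3 after crotonate had a median of 16 and the other 599 a median of 10, so Emx1 lay above, and the third Otx2 start and Six3 below, the median of the former. Of 3 motifs searched on both strands, TAATTA, a homeodomain core that reads the same on both strands, occurred 3 times before the third Otx2 start, once before the first Otx2 start and nowhere before the other 9 starts, and was present before 4.31% of all. CCAAT, the NF-Y box, occurred 3 times before the Six3 start and once each before Emx2, the first Pax6 and the second Otx2 start (35.4% of all). TAATCC, the OTX core, occurred once, before the third Otx2 start (5.82% of all). It shares 4 letters with TAATTA, and each match is a match of letters only.

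**Figure D4:**
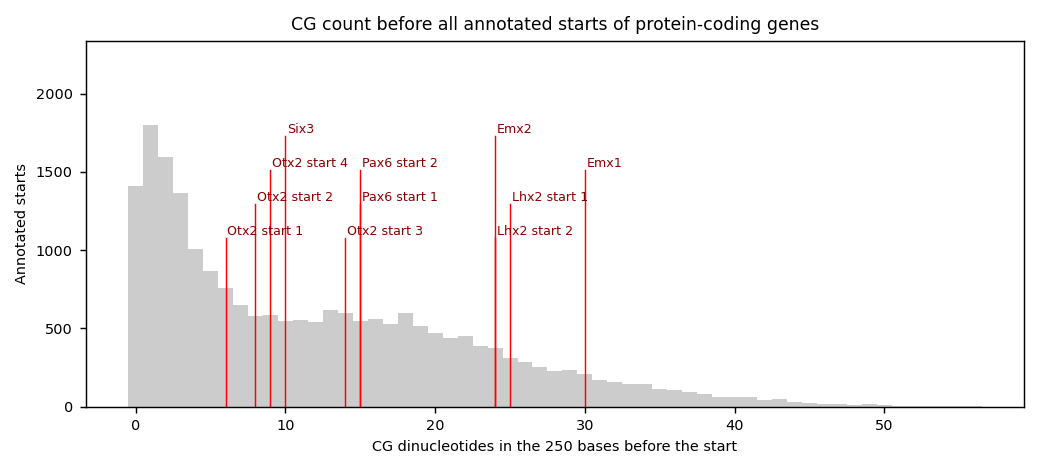
Number of CG dinucleotides in the 250 bases before each of 21263 annotated starts of protein-coding genes (grey bars, counts of starts), with red lines at the 11 starts of the genes described; starts are numbered along the gene. Emx1 stands at 30 and the Lhx2 and Emx2 starts at 24 to 25, while Six3 stands at the median of 10.

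Other forebrain patterning genes gave the surroundings. Among 24 further transcription factors of the telencephalon and eye field, 14 had H3K4me3 in their windows in water and 19 after crotonate, and 18 and 19 had H3K27me3. New H3K4me3 peaks lay at 16 of them, and the marks overlapped at 5 in water and 12 after crotonate. Nr2f2, an orphan nuclear receptor gene of ventral and caudal forebrain, had H3K27me3 over 45.0 and 46.4 kb and H3K4me3 over 0.725 and 3.21 kb, which is the combination seen at Otx2. Zic1, a zinc finger gene of dorsal neural tissue, had H3K27me3 over 2.17 and 3.76 kb beside H3K4me3 over 12.1 and 15.5 kb. Dmrta2, a regulator of the cortical hem, had the lowest ratio of H3K27me3 cover in the list, 0.602, with H3K4me3 over 3.63 and 5.50 kb.

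Of 10 signal genes of the forebrain patterning centres, 6 carried overlapping marks in water and 6 after crotonate, and 5 had a new H3K4me3 peak. Wnt3a, the hem signal, had H3K27me3 over 26.4 and 45.4 kb and H3K4me3 over 2.00 and 3.94 kb. Wnt8b had H3K27me3 over 31.1 and 41.5 kb with no H3K4me3 in either list. At Fgf8, the rostral signal, H3K4me3 covered 1.77 and 3.71 kb and H3K27me3 8.21 and 10.1 kb. At Shh, the ventral signal, H3K4me3 covered 2.31 and 4.31 kb and H3K27me3 11.3 and 10.9 kb. Of 21 relatives of the 7 genes in the same families, 14 had H3K27me3 and no H3K4me3 in water, the state of Emx1 and Six3, and 1 had H3K4me3 alone, the state of Pax6, Emx2 and Otx1. Overlapping marks were found at 2 of the 21 in water and 12 after crotonate, and 13 had a new H3K4me3 peak. Pax3, a factor of dorsal neural tube and muscle progenitors, lay under 70.9 and 81.8 kb of H3K27me3, and H3K4me3 covered 0 and 1.18 kb. At Lhx9, the nearest relative of Lhx2, H3K27me3 covered 29.8 and 32.9 kb, where Lhx2 had 3.83 and 6.16 kb. H3K4me3 covered 0.379 and 1.78 kb at Lhx9. Six5, which is broadly expressed, had H3K4me3 alone, over 5.16 and 7.40 kb. Pax4, a pancreatic islet factor, had H3K27me3 over 1.34 and 4.37 kb and H3K4me3 over 1.46 and 2.12 kb. Median ratios of H3K4me3 cover were 1.38, 1.69 and 1.45 in the 3 lists, and those of H3K27me3 1.16, 1.24 and 1.25. Windows of neighbouring genes can share peaks.

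By the 4 covered lengths alone, on the scale log2 of kb + 1, Pax6 was not distinctive. The nearest genes were Ly6g6e, Il9r, Snrnp25, Rhbdf1 and Coq4 (distance 0.00377 to 0.0152 over the 4 lists), of which Il9r, Snrnp25 and Rhbdf1 had the same 4 values, and 194 genes lay within 0.1.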

How the data were processed

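Peak lists of 4 of the 6 samples were used, 1 library per mark and treatment, with groups taken from sample titles. Bowtie2 2.4.1, SAMtools 1.10, Picard 2.22.0, MACS2 2.2.7.1 and build GRCm38 are named in the submitters' processing notes; for settings, duplicate handling and the background library: not given in the sources used here. Per the file headers, each deposited peak has a pileup signal at its summit, −log10 of p and q, and a fold enrichment (a ratio of signal to local background); peak length is an other value of the deposited table, in bp. These are the authors' values. Heights, folds and ranks describe peaks within a list, and ranks from lists of different length show no change. Lengths, fragments and a median −log10 q were also set side by side across the lists of a mark. Signal was scaled per library, so −log10 q is not on 1 scale across lists and shows no change.

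Fragments at a summit are pileup divided by the step of its list. Relative depth was read from steps and from the lowest local background, taking fold as a ratio with 1 added to both sides. Peaks overlapped at 1 bp or more. Cover is the bases of a window under peaks. Genes came from RefSeq GRCm38.p6 tables, and sequences from its promoter table. Members and lists were chosen with earlier results of these data known. Peaks of the 7 genes are given singly or as ranges; per list, up to 4 genes with the longest cover or extreme ratios are named, and for Pax6 the 5 nearest genes by cover. An item that this rule names is not reported here. Interval code was tested on simulated data. Alternatives were flanks of 0, 10 and 50 kb, a stricter threshold, lists of equal length and an overlap of 50%. Python 3.11.15, numpy 2.4.6, pandas 2.3.3 and matplotlib 3.10.9 were used.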

Additional observations from a re-analysis of the deposited data

How the results depend on the processing

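Of 50 sums and counts over the 7 genes under alternatives, 38 stayed within 1.5 times and 0 turned direction. A count has no direction, so only the ratios of covered length among the 50 could turn. Counts of genes with longer cover, or with cover of at least 1.5 times water, are not among the 50. The ratio of covered length over the 7 genes ran from 1.42 to 1.60 for H3K4me3 and from 1.09 to 1.36 for H3K27me3. Of 44 ratios of single genes, 3 turned, all for H3K27me3: Lhx2 to 0.952 and Otx2 to 0.935 with lists of equal length, and Otx2 to 0.949 above the median −log10 q. Genes with H3K27me3 cover of at least 1.5 times water numbered 2, but 1 with flanks of 10 kb (Lhx2) and 0 over the gene span alone, above the median and with equal lengths; those with longer cover numbered 4, but 2 over the gene span alone and 2 with equal lengths. For H3K4me3, 1 gene reached 1.5 times (Otx2), but 2 above the median (Lhx2 and Otx1) and 2 with flanks of 50 kb. Above the median, water peaks of Lhx2 and Otx1 had fallen under the cutoff while the crotonate peaks over them stayed. New H3K27me3 peaks numbered 15, and 9 with flanks of 10 kb, 4 over the gene span alone, 4 among peaks reaching the water list's median −log10 q and 5 with lists of equal length. Of the 4 above that median, those at Lhx2 (−log10 q 4.29 in water, 6.23 after crotonate) and Six3 (2.82 and 8.96) were not among the 15. They had a water peak that fell under the cutoff. New H3K4me3 peaks numbered 9, and 3 with lists of equal length, at Emx1, Otx1 and Six3. Among peaks reaching the H3K4me3 median of water there was 1, at the first Lhx2 start, and it was not among the 9. The water peak there (−log10 q 31.6) fell under the cutoff and the crotonate peak (53.7) did not. Their summits held 110 and 111 fragments, so −log10 q is not on 1 scale across lists and the cutoff is not equally strict for both. The 1 lost H3K4me3 peak, upstream of Emx2, was 0 over the gene span alone and above the median; with lists of equal length 3 lost H3K27me3 peaks appeared in place of 0. Genes with overlapping marks numbered 1 after crotonate and 0 in water above the median, instead of 4 and 2. That 1 was Lhx2, where the marks overlapped at the first start in both treatments when all peaks were used. Its water H3K4me3 peak there fell under the cutoff. Genes with a start in H3K4me3 after crotonate numbered 2 above the median (Emx2 and Lhx2), instead of 5, and 4 with lists of equal length, without Six3; these alternatives for starts, and those for single genes, were chosen after seeing the data. The new H3K4me3 peaks at Emx1 and Six3 and the H3K4me3 peak of Otx2 thus lie below the stricter threshold, which removes weak peaks by construction. Why lists of equal length differ was not tested. No paired analysis was possible because each group has 1 library. Summits of 10 to 38 fragments limit every peak found in 1 list only.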
